A study of Mus musculus with 8 samples.

Results

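The selectin and vascular adhesion genes Sele, Selp, Selplg, Icam1, Icam2, Vcam1, Pecam1, Cdh5 and Tmem100 were examined in mouse wound skin, as 9 of the 18540 genes in the count table. They were chosen by gene symbol, and all 9 were found and passed the low-count filter that left 15147 genes for testing. Skin from the wounds of 4 control samples, which received PBS, was compared with skin from 4 samples treated with the composite ZCZ for 15 days. ZCZ holds ZnO2 and CeO2 in a ZIF-8 framework, and Z1C2Z is its form with more CeO2 relative to ZnO2. The treated samples are titled shiyan and are called Z1C2Z here because the study's figure labels give that name with the same sample numbers, while the sequencing methods name ZCZ alone. The controls carry the numbers 1, 2, 3 and 5 in their labels and the Z1C2Z samples the numbers 1, 2, 4 and 5, so that control-1 is the control with number 1. The study used C57BL mice and diabetic db/db mice with a pair of back wounds each. The sources used here do not state which of these strains the sequenced samples came from, the age of those animals, or which samples shared a mouse, so the p-values measure the spread between these samples, whatever its origin.

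Leukocytes leave the blood in a series of adhesion steps on the vessel wall. E-selectin (Sele) and P-selectin (Selp) on activated endothelium capture passing leukocytes and let them roll, and P-selectin glycoprotein ligand-1, encoded by Selplg, is the main leukocyte ligand for P-selectin. Firm arrest follows when leukocyte integrins bind ICAM-1, ICAM-2 and VCAM-1, and the cells then pass between endothelial cells joined by PECAM-1 (Pecam1) and VE-cadherin (Cdh5). Sele is transcribed when endothelium meets inflammatory cytokines, and P-selectin is also stored in granules of endothelial cells and platelets. Tmem100 encodes a membrane protein of arterial endothelium that lies downstream of the receptor ALK1 (Acvrl1).

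Sele, Selp, Icam1 and Tmem100 were lower in Z1C2Z wounds, and the other 5 genes did not pass the test. In the model fitted by edgeR, control exceeded Z1C2Z 9.32-fold for Sele, 4.71-fold for Selp, 2.05-fold for Tmem100 and 1.8-fold for Icam1. Levels are given below as CPM (read counts scaled to a common library size by the TMM method). The 4 genes called lower of 9 stand beside 3.85% of all 15147 tested genes called lower, and the same 4 of 9 had groups that did not overlap with Z1C2Z lower, against 8.82% of all tested genes. The 9 genes, like the gene lists below, were chosen with earlier results of these data known. These shares are therefore a description and not a test. Calls were made at an adjusted p under 0.05 in edgeR's quasi-likelihood test. All 9 log2 fold changes were below 0, with a median of -0.84, while the median of all tested genes was 0.01 and 48.9% of them were below 0. DESeq2 called 6 of the 9 genes, adding Pecam1 and Cdh5, beside 2745 of all 15147 tested genes, 1539 of them lower. Omitting control-5 or any of the Z1C2Z samples 1, 2 and 4 left 0 genes of the whole table past the adjusted threshold in edgeR. In each of those fits 4 or 5 of the 9 had an unadjusted p under 0.05, beside 3079 to 4192 of all 15147 tested genes. Omitting control-2 left 2 of the 9, Icam1 and Tmem100, beside 122 genes of the whole table. Without control-1 there were 7, the 4 together with Pecam1, Cdh5 and Vcam1, beside 1467 genes of the whole table.

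**Figure D1:**
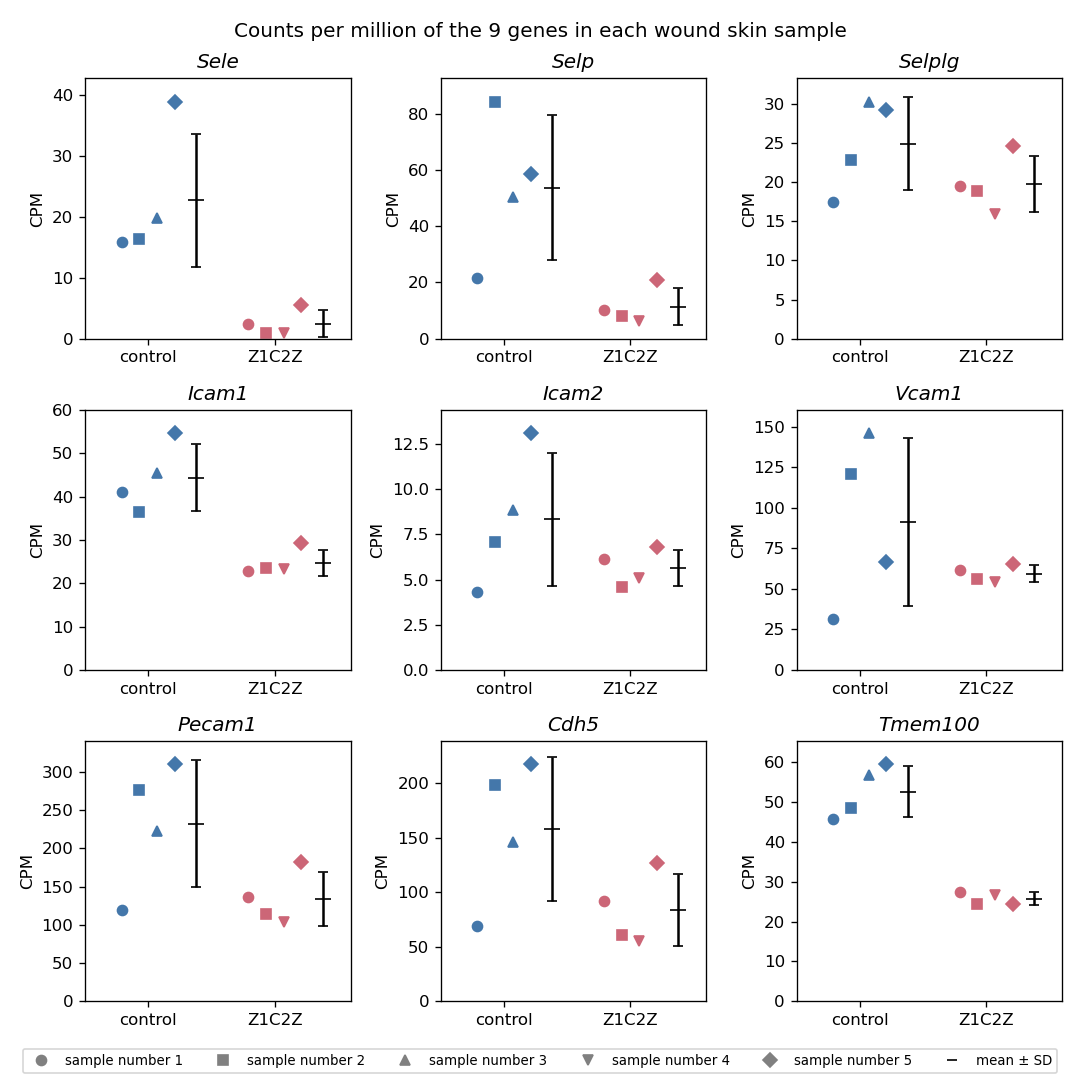
Levels of the 9 genes in each sample, in CPM on linear axes that start at 0, with control samples beside Z1C2Z samples, 1 symbol per sample number and bars for the mean and SD of each group. For Sele the control samples lie between 15.8 and 38.8 CPM and the Z1C2Z samples between 0.881 and 5.57 CPM, whereas the points of Vcam1, Icam2, Selplg, Pecam1 and Cdh5 overlap between groups.

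Sele, the endothelial selectin (Entrez 20339), had 15.8, 16.4, 19.8 and 38.8 CPM in controls 1, 2, 3 and 5. In Z1C2Z samples 1, 2, 4 and 5 it had 2.4, 0.881, 0.929 and 5.57 CPM. The groups did not overlap, with the highest control value in control-5 and the highest treated value in Z1C2Z-5. These levels rest on 445 to 1376 counts per control sample and 34 to 201 counts per Z1C2Z sample. The means were 22.7 ± 10.8 CPM in control and 2.44 ± 2.2 CPM in Z1C2Z (SD, n = 4 each). The log2 fold change, Z1C2Z minus control, was -3.22 (SE 0.6, 95% interval -4.69 to -1.75), with an edgeR adjusted p of 0.0303. The exact two-sided permutation test gave p = 0.0286, the smallest value that 4 samples against 4 allow.

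Selp, the selectin of platelets and endothelium (Entrez 20344), measured 21.5, 84.1, 50.5 and 58.4 CPM in controls 1, 2, 3 and 5. The values in Z1C2Z samples 1, 2, 4 and 5 were 10.3, 7.98, 6.33 and 21 CPM. The groups were separated by a narrow gap, since control-1 was the lowest control by far and lay just above Z1C2Z-5. The mean was 53.6 ± 25.8 CPM in control and 11.4 ± 6.6 CPM in Z1C2Z (SD, n = 4 each). The fall of 2.24 on the log2 scale had an SE of 0.47, a 95% interval of -3.38 to -1.09 and an edgeR adjusted p of 0.0319. Its exact permutation p was also 0.0286. Sele and Selp were the 2 genes of the 9 with the largest fold changes.

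Selplg (Entrez 20345) encodes the leukocyte ligand that P-selectin binds. Controls 1, 2, 3 and 5 had 17.4, 22.8, 30.2 and 29.2 CPM, and Z1C2Z samples 1, 2, 4 and 5 had 19.5, 18.9, 15.9 and 24.6 CPM. The groups overlapped, with control-1 inside the range of the treated samples. The log2 fold change was -0.34 (SE 0.19, 95% interval -0.81 to 0.14), with an edgeR adjusted p of 0.289. The interval holds 0 and does not reach the values fitted for either selectin, but the difference between genes was not tested.

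The 250 bases upstream of the transcription start are shown for the selectins and Icam1, the members present in the RefSeq promoter table (3 of 9, build GRCm38.p6), because all 3 were called lower and are induced by cytokines in endothelium. Capitals mark matches to 4 short motifs on either strand: GGNNNTTCC, a sequence like the sites bound by NF-kappa B, TGACNTCA, like a cyclic AMP response element, TGACTCA, the AP-1 sequence, and TATAAA. All 3 windows are on the plus strand, at chr1:164047984-164048233 for Sele, chr1:164115014-164115263 for Selp and chr9:21015690-21015939 for Icam1.
Sele: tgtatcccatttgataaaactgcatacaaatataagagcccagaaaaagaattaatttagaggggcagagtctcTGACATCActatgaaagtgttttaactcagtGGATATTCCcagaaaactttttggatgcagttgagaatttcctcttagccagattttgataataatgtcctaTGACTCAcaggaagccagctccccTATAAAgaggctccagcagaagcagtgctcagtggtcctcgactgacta
Selp: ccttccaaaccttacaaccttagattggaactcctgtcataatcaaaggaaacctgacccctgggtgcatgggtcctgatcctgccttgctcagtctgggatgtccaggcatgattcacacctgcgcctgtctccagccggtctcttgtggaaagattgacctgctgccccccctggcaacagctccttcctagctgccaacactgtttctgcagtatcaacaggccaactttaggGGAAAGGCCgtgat
Icam1: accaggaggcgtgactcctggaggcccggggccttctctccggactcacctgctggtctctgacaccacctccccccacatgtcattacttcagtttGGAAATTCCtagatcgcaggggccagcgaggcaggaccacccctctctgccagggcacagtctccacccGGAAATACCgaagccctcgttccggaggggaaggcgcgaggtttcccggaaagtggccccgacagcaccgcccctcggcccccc

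The Sele window held all 4 motifs, with TGACATCA 176 to 169 bases before the start, GGATATTCC 145 to 137 bases before it, TGACTCA 73 to 67 and TATAAA 49 to 44 bases before it. In Selp, 1 match, GGAAAGGCC, lay 14 to 6 bases before the start and matched GGNNNTTCC on the opposite strand. Icam1 held GGAAATTCC, which matches on both strands, 153 to 145 bases before the start, and GGAAATACC on the opposite strand 84 to 76 bases before it. Among 32851 windows of the same length, 15.7% held GGNNNTTCC, 7.49% TGACNTCA, 4.46% TGACTCA and 12.4% TATAAA. A match describes the letters in the window and was not tested as a binding site. The GC content was 40.4% for Sele, 53.6% for Selp and 65.2% for Icam1.

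Among the integrin ligands, Icam1 was lower and Icam2 and Vcam1 did not pass the test. Icam1 (Entrez 15894) encodes the ligand of the leukocyte integrins LFA-1 and Mac-1. Its level was 41, 36.4, 45.4 and 54.6 CPM in controls 1, 2, 3 and 5 and 22.8, 23.6, 23.3 and 29.2 CPM in Z1C2Z samples 1, 2, 4 and 5. The lowest control value lay above the highest treated value, and 3 of the 4 treated samples were within 1 CPM of each other. The log2 fold change was -0.84 (SE 0.14, 95% interval -1.19 to -0.5), with an edgeR adjusted p of 0.0299 and an exact permutation p of 0.0286.

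Icam2 (Entrez 15896), which endothelium carries without stimulation, had 4.33, 7.1, 8.87 and 13.1 CPM in the control samples and 6.15, 4.59, 5.1 and 6.79 CPM in the Z1C2Z samples. The lowest value of all came from control-1, below every treated sample. The log2 fold change was -0.56 (SE 0.3, 95% interval -1.31 to 0.18, edgeR adjusted p = 0.256). Vcam1 (Entrez 22329), the ligand of the integrin VLA-4, had 31.4, 121, 146 and 66.8 CPM in controls 1, 2, 3 and 5. It had 61.7, 55.9, 54.2 and 65.5 CPM in Z1C2Z samples 1, 2, 4 and 5. The controls spread on both sides of the treated samples, with an SD of 51.8 CPM against 5.24 CPM. The log2 fold change of Vcam1 was -0.62 (SE 0.39, 95% interval -1.57 to 0.32, edgeR adjusted p = 0.324).

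The junction genes Pecam1 and Cdh5 had lower means in Z1C2Z without passing the test. Pecam1 (Entrez 18613) had 120, 276, 223 and 310 CPM in controls 1, 2, 3 and 5 and 137, 114, 103 and 182 CPM in Z1C2Z samples 1, 2, 4 and 5. Cdh5 (Entrez 12562) had 69.2, 198, 146 and 217 CPM in the controls and 92.2, 60.2, 55.5 and 127 CPM in the treated samples. In both genes control-1 fell among the treated samples and the other 3 controls lay above all of them. The log2 fold changes were -0.8 for Pecam1 (SE 0.29, 95% interval -1.5 to -0.1, edgeR adjusted p = 0.111) and -0.91 for Cdh5 (SE 0.37, 95% interval -1.82 to -0.01, edgeR adjusted p = 0.145). These intervals are not adjusted for the number of genes. Over the 8 samples the 2 genes moved together, with a correlation of log2 CPM of 0.99, and the correlation of their deviations from the group means was also 0.99. The samples share their libraries and their depth, so the correlation is a description.

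Tmem100 (Entrez 67888) had the smallest SE of the 9 genes. It measured 45.9, 48.6, 56.8 and 59.5 CPM in controls 1, 2, 3 and 5 and 27.5, 24.4, 26.7 and 24.4 CPM in Z1C2Z samples 1, 2, 4 and 5. The groups were well apart, and control-1, which was far below the other controls for Selp, Pecam1 and Cdh5, was here close to control-2. The means were 52.7 ± 6.48 CPM in control and 25.7 ± 1.59 CPM in Z1C2Z (SD, n = 4 each). The log2 fold change was -1.03 (SE 0.11, 95% interval -1.29 to -0.78), with an edgeR adjusted p of 0.0232 and an exact permutation p of 0.0286. The deviations of Tmem100 from its group means correlated with those of the other members at 0.16 (Selp) to 0.8 (Icam2). The correlation was 0.43 with Cdh5 and 0.56 with Selplg.

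**Figure D2:**
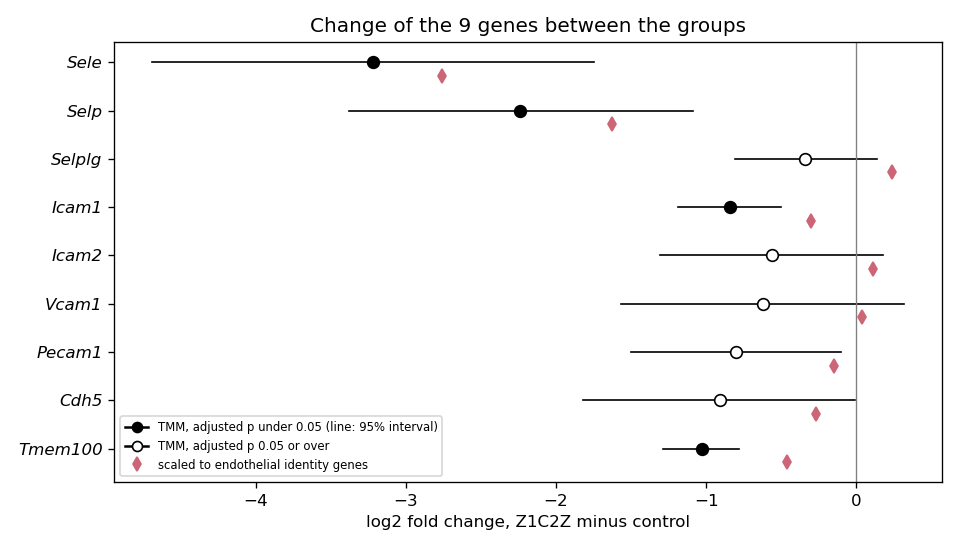
Log2 fold changes of the 9 genes, Z1C2Z minus control, as points with 95% intervals from edgeR with TMM, and as diamonds after scaling to the endothelial genes described next. Filled points mark the 4 genes with an adjusted p under 0.05, Sele at -3.22, Selp at -2.24, Tmem100 at -1.03 and Icam1 at -0.84, and the intervals of Selplg, Icam2 and Vcam1 cross 0.

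Per kilobase of exon (union of exons in GENCODE M21), Pecam1 was the most abundant of the 9 in control wounds at 56.2 ± 20.1 CPM per kb, followed by Cdh5 at 39.4 ± 16.5 and Tmem100 at 29.8 ± 3.67 (SD, n = 4). Vcam1 (18.3 ± 10.4), Icam1 (17.5 ± 3.06), Selp (15.6 ± 7.5) and Selplg (13.4 ± 3.22) came next, and Sele (7.8 ± 3.74) and Icam2 (6.51 ± 2.87 CPM per kb) were lowest. The ranges of every pair of neighbours in this order overlapped in the control group. In Z1C2Z wounds Pecam1, Cdh5 and Tmem100 were again the highest, at 32.4 ± 8.47, 21 ± 8.3 and 14.6 ± 0.901 CPM per kb. The selectins took the lowest places there, Selp at 3.32 ± 1.92 and Sele at 0.84 ± 0.755 CPM per kb, below Icam2 at 4.41 ± 0.777. The ranges of Selp and Icam2 overlapped in Z1C2Z, as did those of Sele and Selp.

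Because endothelium makes most of these transcripts, though Icam1 and Vcam1 have other sources in skin and Selplg comes from leukocytes, the members were set beside 18 other endothelial identity genes, such as Kdr, Tek and Erg. In bulk tissue, fewer endothelial cells and less RNA per endothelial cell cannot be told apart. Of the 18, edgeR called 0, with 10 at an unadjusted p under 0.05, and DESeq2 called 4. Of all 15147 tested genes, 4248 had an unadjusted p under 0.05 in edgeR, and DESeq2 called 2745. The median log2 fold change of the 18 was -0.71, with 17 of 18 below 0 and Cldn5 at 0.39. Ptprb (a receptor phosphatase, 115 to 77.8 CPM) and Eng (a co-receptor of ALK1, 84.5 to 44.6 CPM, log2 fold change -0.92, edgeR adjusted p = 0.0913) had the highest levels of the list. Their summed level was 467 to 1240 CPM in control samples and 410 to 729 CPM in Z1C2Z samples. The lowest control sum came from control-1, and the groups overlapped.

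Sele and Selp were also lower in Z1C2Z when libraries were scaled to this endothelial level, but not called when it was a covariate. The mean log2 CPM of the 18 genes was taken as an endothelial score and subtracted from the log2 CPM of each member. Sele minus the score was -0.75 ± 0.47 in control samples and -3.64 ± 0.89 in Z1C2Z samples (log2 scale, SD, n = 4 each), without overlap. Selp minus the score was 0.44 ± 0.41 in control and -1.2 ± 0.41 in Z1C2Z, also without overlap. Pecam1 minus the score did not overlap either, but its means were close, at 2.62 ± 0.08 and 2.47 ± 0.03. When edgeR was run with libraries scaled to the endothelial score, Sele had a log2 fold change of -2.76 (adjusted p = 1.04e-06) and Selp one of -1.63 (adjusted p = 0.00358). This scaling moved the median of all tested genes to 0.538. With the same score as a covariate instead, edgeR called 0 genes of the whole table, so the lack of a call is not particular to the selectins. In that fit Sele had -2.61 (adjusted p = 0.126) and Selp -1.34 (adjusted p = 0.128) on the log2 scale. In the fit with scaled libraries Icam1 had -0.3 (adjusted p = 0.562) and Tmem100 -0.46 (adjusted p = 0.404), neither of which passed. Pecam1 had -0.15 (adjusted p = 0.783) and Cdh5 -0.27 (adjusted p = 0.605). Selplg, Icam2 and Vcam1 turned to 0.24, 0.11 and 0.04 under it.

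The ratio of Sele to Cdh5 counts was 0.228, 0.0831, 0.135 and 0.179 in controls 1, 2, 3 and 5. It was 0.026, 0.0146, 0.0167 and 0.044 in Z1C2Z samples 1, 2, 4 and 5. Control-1, whose endothelial score of 4.36 was below that of 3 of the 4 treated samples, thus had the highest ratio of Sele to Cdh5. The ratio of Selp to Cdh5 was 0.269 to 0.426 in control and 0.112 to 0.166 in Z1C2Z. By contrast, the ratio of Pecam1 to Cdh5 overlapped, at 1.39 to 1.73 in control and 1.44 to 1.89 in Z1C2Z. The ratios of the called members Icam1 and Tmem100 to Cdh5 overlapped too. Icam1 to Cdh5 was 0.184 to 0.593 in control and 0.23 to 0.419 in Z1C2Z. Tmem100 to Cdh5 was 0.246 to 0.663 in control and 0.193 to 0.481 in Z1C2Z.

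**Figure D3:**
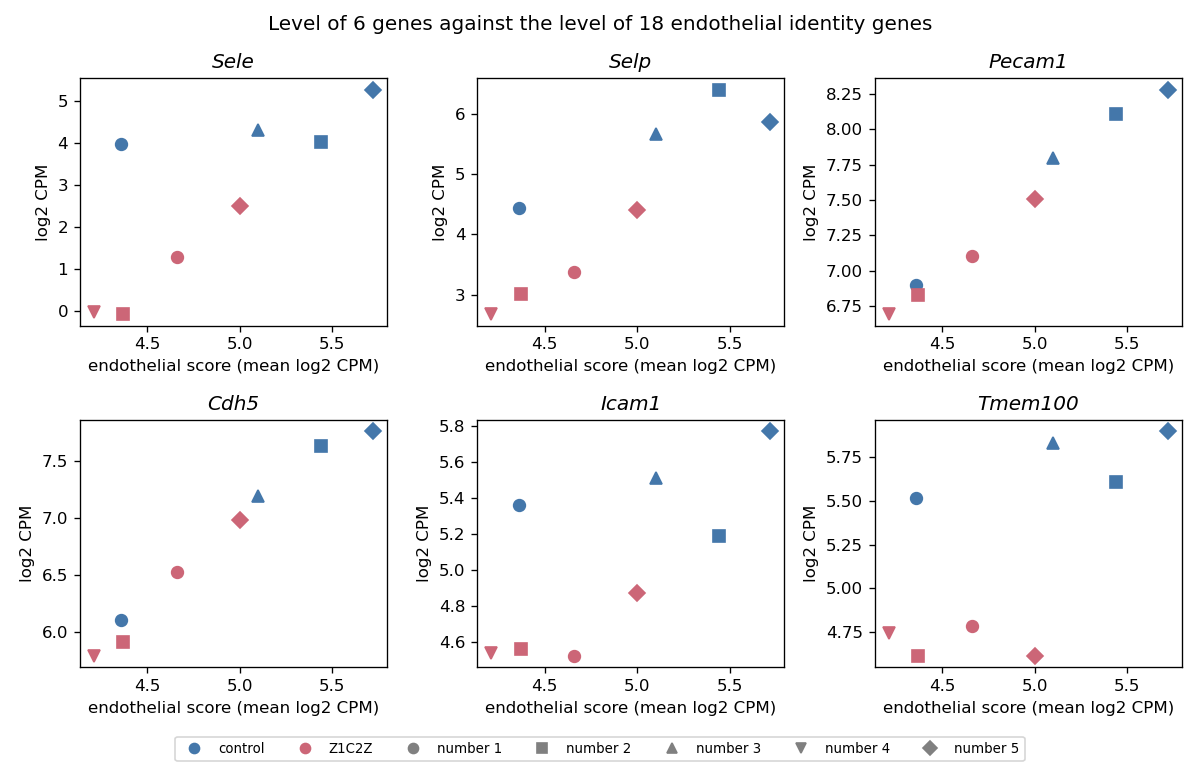
Levels of 6 genes (log2 CPM, vertical axis) against the endothelial score of each sample (mean log2 CPM of 18 endothelial genes, horizontal axis), with control samples in blue, Z1C2Z samples in red and 1 symbol per sample number. For Sele and Selp the Z1C2Z points lie below the control points, including control-1 at a score of 4.36, while for Pecam1 and Cdh5 all points lie along nearly the same line.

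The counter-receptors of leukocytes and the enzymes that build selectin ligands were tested as a list of 20 genes, beside 8.13% of all tested genes called in either direction. In this list, 3 were called lower, 0 were called higher, and the median log2 fold change was -0.28. Cd44, which carries an E-selectin ligand on leukocytes but is also made by keratinocytes and fibroblasts, fell from 838 to 416 CPM (log2 fold change -1.01, SE 0.13, edgeR adjusted p = 0.028). Itgb1, the beta chain of VLA-4 and of many integrins of other cells, fell from 1060 to 690 CPM (log2 fold change -0.61, adjusted p = 0.0386). St3gal4, a sialyltransferase of selectin ligand synthesis, fell from 53.7 to 44.3 CPM (log2 fold change -0.28, adjusted p = 0.0461). The enzyme gene Gcnt1 was higher in Z1C2Z without overlap but was not called (0.5, adjusted p = 0.0622), and Fut7 and Fut4 had 0.9 and 0.12, also not called. The integrin chains that mark leukocytes did not pass the test. Itgb2 had -0.35 (adjusted p = 0.329), Itgal -0.22 (adjusted p = 0.697) and Itgam -0.65 (adjusted p = 0.322), while Itgax had 0.03 and Itgb7 0.18. Of the 20 genes, 14 had log2 fold changes below 0. As for the members, no call of any list was left without control-5 or without any of the Z1C2Z samples 1, 2 and 4.

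Of 23 tested genes of junctions and transmigration, 4 were called lower and 2 higher, beside 8.13% of all tested genes called in either direction. The median log2 fold change of the 23 was -0.04. The lower genes were Jam2 (52.8 to 30.4 CPM, log2 fold change -0.8, edgeR adjusted p = 0.0407) and Jam3 (-0.59, adjusted p = 0.03), both junctional adhesion molecules, Pvr (45.4 to 16.1 CPM, -1.5, adjusted p = 0.0337), a nectin-like receptor, and Cd34 (-0.34, adjusted p = 0.0487), a sialomucin of endothelium and of hair follicle stem cells. Alcam rose from 85.1 to 142 CPM (0.74, adjusted p = 0.03) and Ocln, occludin of tight junctions in epithelium and endothelium, from 18.4 to 31.7 CPM (0.78, adjusted p = 0.0363). The catenins with the highest levels of the list did not pass, Ctnnb1 with 0.21 (adjusted p = 0.158) and Jup with an adjusted p of 0.449.

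Tmem100 was set beside 16 genes of ALK1 and BMP signalling, of which 1 was called, beside 8.13% of all tested genes called in either direction. The count does not set this list apart. Smad6, an inhibitory Smad, rose from 2.3 to 6.46 CPM (log2 fold change 1.49, SE 0.26, edgeR adjusted p = 0.0299), opposite in sign to Tmem100. The values of Acvrl1 were 32.8 to 50.4 CPM in control and 28.3 to 36.8 CPM in Z1C2Z (log2 fold change -0.43, adjusted p = 0.0896). Bmpr2 had -0.18 (adjusted p = 0.324), and the target gene Id1 had -0.02 (adjusted p = 0.955). The median log2 fold change of the 16 was -0.09.

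Among 16 tested genes of inducing cytokines, their receptors and NF-kappa B components, 7 were called lower and 0 higher, beside 3.85% of all tested genes called lower. Their median log2 fold change was -0.59. Whether they act on Sele, Icam1 and Vcam1 in these wounds was not tested. The largest fall was that of Il6, by 5.51 on the log2 scale. Il6 had 174, 5.19, 7.49 and 150 CPM in controls 1, 2, 3 and 5 and 0.728 to 3.47 CPM in Z1C2Z, so that controls 1 and 5 set most of its mean. The IL-1 receptor Il1r1 fell by 1.28, the IL-4 receptor Il4ra by 1.36, the TNF receptor Tnfrsf1a by 0.56, and the NF-kappa B subunits Nfkb1, Nfkb2 and Rela by 0.57, 0.61 and 0.46. The cytokines Tnf and Il1b did not pass, with log2 fold changes of -0.11 (edgeR adjusted p = 0.87) and -1.81 (adjusted p = 0.119). Il1b ranged from 75.3 to 135 CPM in control and from 5.37 to 63.8 CPM in Z1C2Z.

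The genes whose log2 CPM followed each called member most closely over the 8 samples were, for Sele, Calu (r = 0.995), Tgm2 (0.993) and Sav1 (0.992), and for Selp, Snx9, Capn2 and Lpin2 (0.988 each). Icam1 was followed by Rcn2 (0.989), Cd44 (0.988) and Tsku (0.987), and Tmem100 by Cfap69 (0.982), C1qtnf3 (0.981) and Srpk3 (0.975). Differences between the groups enter these correlations, which are descriptions over libraries shared by all genes. Within the members, Sele correlated with Selp at 0.92 and with Icam1 at 0.95 over the 8 samples, and at 0.67 and 0.73 after the group means were removed. Vcam1 was the member least like Sele, at 0.33 and 0.12.

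Markers of other cell types moved with the groups, and their part in the results above was not tested. Hair follicle keratins and regulators summed to 594 to 3630 CPM in control and 4430 to 15900 CPM in Z1C2Z, with 11 of 12 called higher (median log2 fold change 2.55). Skeletal muscle markers summed to 3280 to 5960 CPM in control, where control-1 had the highest muscle score, and 2700 to 3040 CPM in Z1C2Z, with 3 of 10 called lower. Fibroblast markers (3 of 7 called lower) summed to 55800 to 79500 CPM in control and 43800 to 61500 CPM in Z1C2Z. Of all tested genes, 8.13% were called in either direction and 3.85% were called lower. With the hair follicle, muscle or endothelial score as a covariate, edgeR called 0 of the 9 members, and 1, 1 and 0 genes of the whole table. Of the members, 4, 9 and 4 had an unadjusted p under 0.05, beside 645, 3143 and 2269 of all 15147 tested genes. Sele had log2 fold changes of -1.68, -3.56 and -2.61 in these fits. The hair follicle score (up to 6.5 in control, from 6.79 in Z1C2Z) and the muscle score (from 7.85 in control, up to 7.76 in Z1C2Z) separate the groups. These 2 scores and the treatment can therefore hardly be told apart in such fits.

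For blood cells, neutrophil markers summed to 581 to 1510 CPM in control and 169 to 672 CPM in Z1C2Z, with 0 of 7 tested genes called and a median log2 fold change of -1.12. Macrophage markers summed to 1620 to 1920 and 933 to 1650 CPM, with 0 of 9 called. Platelet markers, which bear on the second source of Selp, summed to 60.4 to 114 CPM in control and 31.4 to 64.8 CPM in Z1C2Z, with 0 of 5 tested genes called. Most of that sum was Pf4, which macrophages can also make (log2 fold change -0.99, edgeR adjusted p = 0.0648). Pericyte markers (0 of 7 called) and lymphatic endothelial markers (1 of 6 called lower, Pdpn) had median log2 fold changes of -0.64 and -0.25. In these 4 lists without a call, 4, 4, 4 and 3 genes had an unadjusted p under 0.05, and the platelet count includes Gp5, which was higher. Of all 15147 tested genes, 4248 had an unadjusted p under 0.05 in the same edgeR fit. Keratinocyte markers, which check the labelled tissue, were present at 11700 to 18000 CPM summed over all samples, with 0 of 7 called and 0 at an unadjusted p under 0.05.

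**Figure D4:**
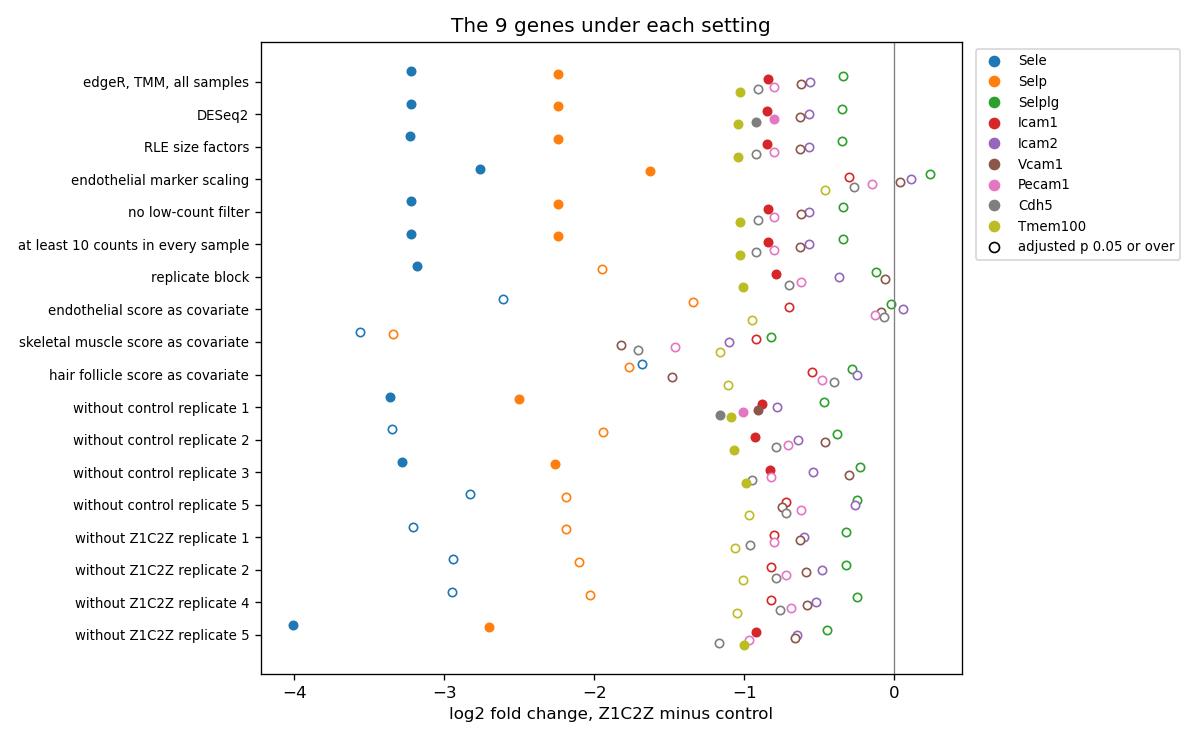
Log2 fold changes of the 9 genes, Z1C2Z minus control (horizontal axis), under each tool, scaling, filter, covariate and omission of a sample (rows), with filled points for an adjusted p under 0.05. Sele lies between -4.01 and -1.68 and Selp between -3.34 and -1.34 in every row, while open points show where a call was not made.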

How the data were processed

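Total RNA from wound skin was sequenced after ribosomal RNA depletion. The values deposited by the authors are raw, whole read counts for each gene. The aligner, counting program, build, annotation and strand setting are not given in the sources used here. The methods name an RNA Easy Fast kit and the labels Trizol. The total was 28856790 to 38974888 counts per sample. No pair of libraries agreed within sampling noise (smallest chi-square per degree of freedom 21.8), and each was counted as 1 replicate.

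Groups followed the sample titles (con or shiyan with a number), which pair with the control and Z1C2Z names and numbers in the study's figure labels. In R 4.3.3, 15147 genes kept by filterByExpr were normalized by TMM and tested with edgeR 4.0.16 (quasi-likelihood, limma 3.58.1, Benjamini-Hochberg adjustment, called at an adjusted p under 0.05). Log2 CPM used a prior count of 2. The quasi-likelihood F statistic gave the standard errors. Exact two-sided permutation tests covered 70 arrangements. The steps were tested on simulated counts.

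The members and gene lists were chosen with earlier results of these data known. The values of 1 listed gene are not reported here. The text names all members and the 3 genes most correlated with each called member. Of the lists it names up to 4 called genes and, for some lists, the 2 most abundant genes, with further list genes added after their values were seen. Alternatives were DESeq2 1.42.0, RLE size factors, scaling to endothelial genes, no low-count filter, 10 counts in every sample, the replicate number as a block, cell type scores as covariates, a log2 fold change over 1 and each sample left out.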

Additional observations from a re-analysis of the deposited data

Results flagged for a closer look

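Icam1 in the Z1C2Z group had 1 sample away from the others. Z1C2Z-5, at 29.2 CPM, was separated from the nearest of the other 3 samples by 0.866 of the range of the group, over the limit of Dixon's test for 4 samples. This check covered 18 groups of 4 values, and chance marks about 1 in 20 of such groups. Z1C2Z-5 also had the highest Sele (5.57 CPM) and Selp (21 CPM) of the treated samples. Without Z1C2Z-5, Icam1 remained called.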

How the results depend on the processing

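Sele, Selp, Icam1, Pecam1, Cdh5 and Tmem100 were below 0 under all 17 alternatives. The count of called members, 4, became 2 with scaling to endothelial genes, 0 with the endothelial, muscle or hair follicle score as a covariate, and ranged from 0 to 7 when a sample was left out. Of all genes, 1231 were called, 2745 by DESeq2, 668 with endothelial scaling, 515 with the added fold threshold, 0 with the endothelial covariate and 1 each with the muscle and hair follicle covariates (0 to 1730 when a sample was left out). At an unadjusted p under 0.05, 4 members passed with the endothelial covariate, beside 2269 of all 15147 tested genes. Endothelial identity genes had 0 calls, 4 by DESeq2, and 0 to 8 when a sample was left out (8 without control-1, 2 without Z1C2Z-5). Counter-receptors and ligand enzymes had 3 calls, 6 by DESeq2, 1 with the fold threshold, 0 with endothelial scaling and with each covariate, and 0 to 3 when a sample was left out. Junction genes had 6 calls, 11 by DESeq2, 1 with the fold threshold, 0 with endothelial scaling and with each covariate, and 0 to 9 when a sample was left out. ALK1 and BMP genes had 1 call, 3 by DESeq2, 0 with each covariate, and 0 to 3 when a sample was left out. Selplg, Icam2 and Vcam1 turned to 0.24, 0.11 and 0.04 with endothelial scaling, and Icam2 to 0.06 with the endothelial covariate. The cause was not tested. Sample numbers 1, 2 and 5 occur in both groups, but their deviations correlated at -0.101, -0.0623 and 0.323, and 2 of 6 samples correlated best with their own number. With the replicate block, which drops control-3 and Z1C2Z-4 from the contrast, 554 genes were called, 3 members (Sele, Icam1 and Tmem100, while Selp had -1.95, adjusted p = 0.0668), 1 counter-receptor gene and 2 junction genes. Sele rested on 34 to 201 counts per Z1C2Z sample.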
